A study of Mus musculus with 2 samples.

Results

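The genes described here are those of the cytosolic ribosomal proteins, taken as every gene symbol that begins with Rpl, Rps or Rplp followed by a digit, without names holding -ps (pseudogenes) and without the Rps6k kinases. Among 23238 gene symbols counted, 87 met this rule, 53 named for the large and 34 for the small subunit. They comprise 76 genes of the standard mammalian set, 9 paralogs or further copies, the retrocopy Rpl37rt, and Rps19bp1, which encodes a binding partner of Rps19 and is not a ribosomal protein itself. Read counts came from 2 libraries of bone marrow-derived dendritic cells, which are antigen-presenting cells grown from mouse marrow. Both libraries came from female C57BL/6 mice aged 7 weeks, whose marrow was cultured with GM-CSF at 20 ng/ml, fed again on day 3 and collected on day 6 as immature cells that floated or held loosely to the dish. The control group is 1 library, for which the labels name no vehicle. The UNE-C1 group is 1 library, and the labels give 100 nM for 24 h. This protein fragment, a piece of the enzyme that charges cysteine tRNA, is known as a ligand of the receptors TLR2 and TLR6. The sources used here give neither the number of mice nor any pooling.

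The cytosolic ribosome is built from ribosomal RNA and a fixed set of proteins, each present as a single copy except in the stalk. The small subunit reads the messenger RNA and the large subunit joins the amino acids. Most ribosomal protein messengers begin with a C followed by a run of pyrimidines, the TOP motif, through which their translation follows mTOR signalling, and their genes are known for being expressed in step with one another.

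Sequencing depth was 14857198 reads for the control and 15975821 for UNE-C1. Levels are given in CPM, the read count relative to a library size scaled by TMM, and the log2 fold change is log2((CPM + 1)/(CPM + 1)), UNE-C1 over control. Reads were made near the 3' end of messengers, so read number is not expected to scale with transcript length. Each group being a single library, the values have no replicate error and no test. Intervals are exact 95% intervals (Clopper-Pearson, conditional binomial), which cover counting error only, and PCR copies cannot be told from separate molecules. Of 14 dendritic cell markers, Cd74 and H2-Ab1 stood at 2907 and 2732 CPM in the control and at 2901 and 2594 CPM with UNE-C1. Itgax went from 759 to 246 CPM and Clec9a from 10.5 to 2.40 CPM, both at least 2-fold lower. Xcr1 went from 3.23 to 13.3 CPM, at least 2-fold higher. Flt3 and Zbtb46 were low in the control, at 8.55 and 3.71 CPM, and Cd209a had 0 reads in both libraries. Markers of other cells also differed: with UNE-C1, 15 of 18 markers of dividing cells were at least 2-fold lower, as were 11 of 13 for neutrophils (of 14 listed), against 9.42% of all genes tested. Among the neutrophil markers Lcn2 was at least 2-fold higher, going from 226 to 551 CPM. The summed levels of the dividing cell and neutrophil markers went from 690 to 174 CPM and from 8553 to 3764 CPM. No counted marker on either list was at 0. In a bulk library, fewer cells of a type and less RNA per cell cannot be told apart, and the part of these cells in the values below was not tested.

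Ribosomal protein messengers were lower as a block in the UNE-C1 library, by a modest and even amount. Of the 85 members with at least 50 reads in either library, 79 had a log2 fold change below 0, where the background over all 10469 genes tested was 50.4%. Their median was -0.66, against -0.00 for all genes tested. The interquartile range of the members ran from -0.79 to -0.48, a width of 0.31 against 0.85 for all genes. Few members passed a 2-fold difference: 10 of 85 were at least 2-fold lower, near the background of 9.42%, and 1 was at least 2-fold higher, where the background was 9.31%. The member just inside the 2-fold line was Rps2 at -1.01. Among the 80 members with at least 1000 reads, 77 were below 0 (background 41.8% of 2979 genes), 9 were at least 2-fold lower (background 5.67%) and 0 at least 2-fold higher (background 15.3%). When libraries were scaled by total counts, the median of all genes moved to -0.33, 83 of 85 members were below 0 (background 70.3%), 44 were at least 2-fold lower (background 16.2%) and 0 were 2-fold higher (background 6.28%). No member was 2-fold higher with a pseudocount of 5 (background 6.92%) or a floor of 200 reads (background 10.1%) either.

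**Figure D1:**
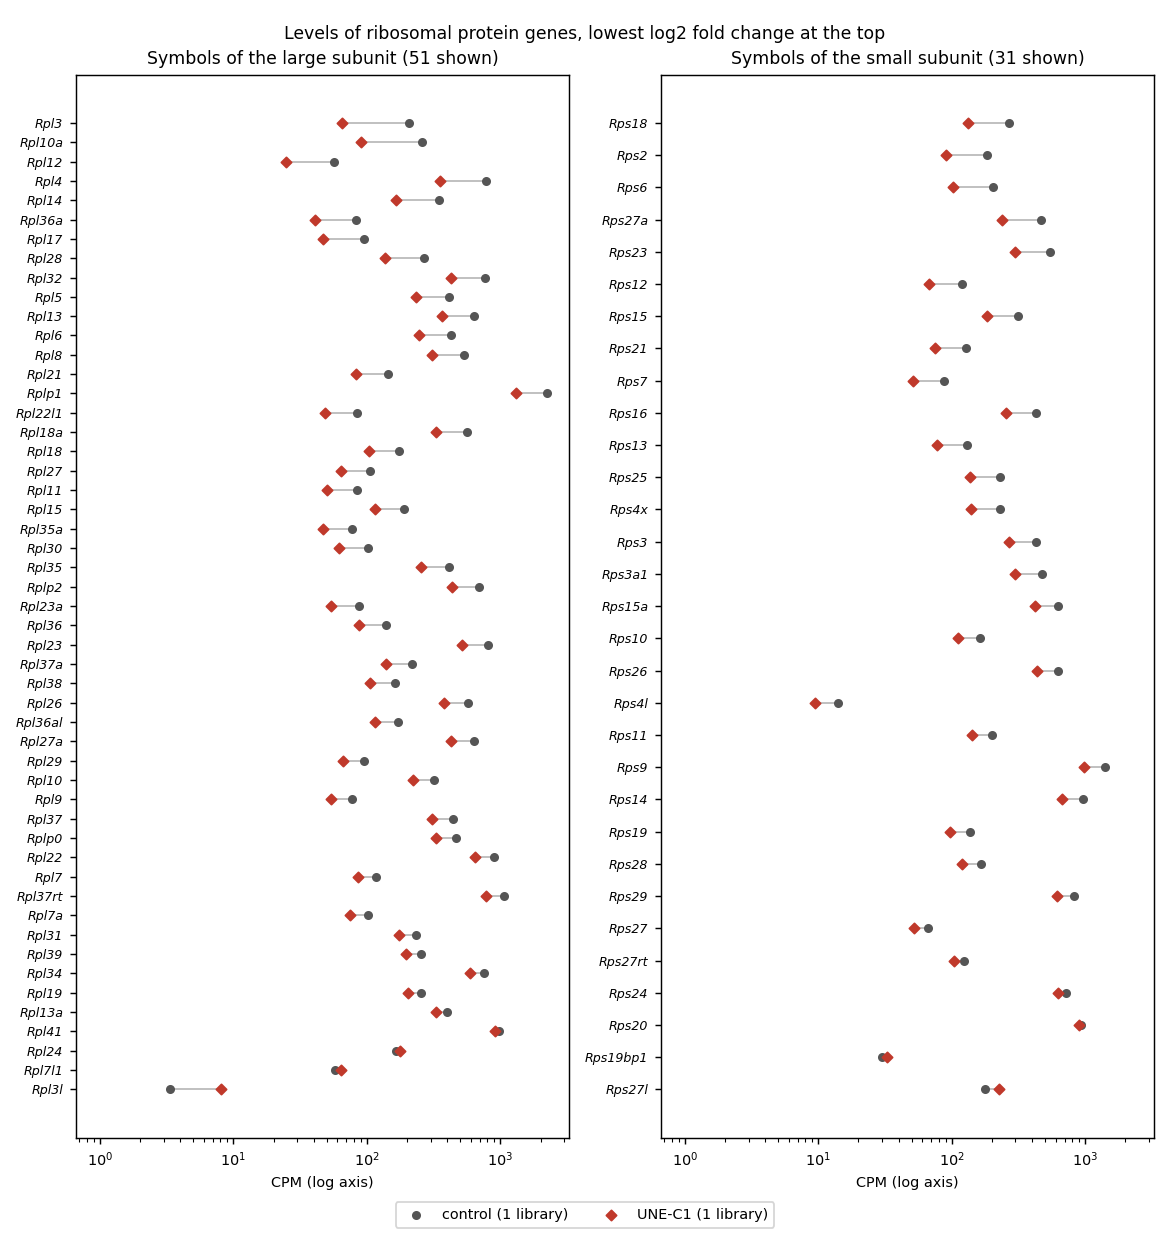
Level of 82 of the 85 members past the floor in the control library (grey circles) and the UNE-C1 library (red diamonds), in CPM on a log axis, with large subunit symbols left and small subunit symbols right. Nearly all red points lie left of their grey partner, and the 5 members shown at the foot of the panels that do not are Rpl24, Rpl7l1, Rpl3l, Rps19bp1 and Rps27l, of which Rpl3l and Rps27l alone stay above 0 with total counts.

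As a share of all reads, which is the total-count scaling, the members took 532365 reads or 3.58% of the control library (interval 3.57 to 3.59) and 302841 reads or 1.90% of the UNE-C1 library (1.89 to 1.90). The share was 1.89-fold lower with UNE-C1, and the summed CPM, scaled by TMM, 1.49-fold lower. The order of members by level was nearly the same in both libraries (Spearman 0.97 across the 76 standard genes, a description of genes that share both libraries). Within the control the standard genes spanned a 39.6-fold range, from 56.5 CPM for Rpl12 to 2238 CPM for Rplp1, with a median of 262 CPM. In the UNE-C1 library the same 2 genes marked the ends, at 24.6 and 1304 CPM, and the median was 175 CPM. By rank, 6 members were among the 100 genes with most reads in the control library and 1, Rplp1, in the UNE-C1 library. Among the 500 genes with most reads there were 38 and then 23 members.

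Large and small subunit genes differed little in their medians. The 51 large subunit symbols had a median log2 fold change of -0.67 and the 34 small subunit symbols -0.61. Among standard genes alone the medians were -0.69 for 46 large and -0.68 for 30 small subunit genes. Each subunit had 11.8% of its symbols at least 2-fold lower, 6 of 51 and 4 of 34, near the background of 9.42%. Summed reads gave a different picture: the control had 1.52 large subunit reads per small subunit read (interval 1.51 to 1.53), and with UNE-C1 there were 1.40 (1.39 to 1.41). No test of the difference between subunits can be made with these libraries.

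**Figure D2:**
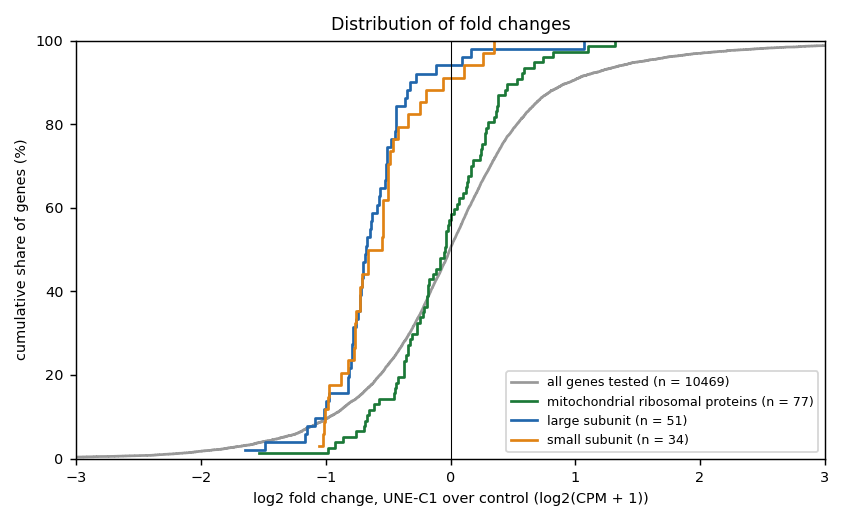
Cumulative share of genes (vertical axis, %) at or below each log2 fold change (horizontal axis) for all 10469 genes tested, 77 mitochondrial ribosomal protein genes, and the 51 large and 34 small subunit members. The curves of both subunits rise steeply and together left of 0, with medians of -0.67 and -0.61, while the mitochondrial set, with a median of -0.04, lies near all genes.

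In the large subunit the lowest log2 fold changes were those of Rpl3, Rpl10a and Rpl12. Rpl3, which reaches towards the site of peptide bond formation (chromosome 15, 80077791 to 80091868, minus strand; positions are on GRCm38), went from 205 CPM to 64.9 CPM with UNE-C1. It had the lowest log2 fold change of all members, -1.65. Rpl10a, the protein of the L1 stalk beside the tRNA exit site (chromosome 17, 28328471 to 28331033), had 4296 and 1290 reads, or 257 and 90.9 CPM. That is 2.82-fold lower, with an interval of 2.65 to 3.01. Rpl4, which lines the peptide exit tunnel (chromosome 9, 64173375 to 64178666), went from 780 to 351 CPM and was 2.22-fold lower (2.15 to 2.30). Rpl14 stood at 350 and 164 CPM, 2.13-fold lower (2.03 to 2.23). Rpl36a, on 1394 and 577 reads, was 2.05-fold lower (1.86 to 2.26). These 5 and Rpl12 were the large subunit genes past a 2-fold difference, and Rpl17, at -0.999 on the log2(CPM + 1) scale used for the calls, was just short of it. Without the pseudocount Rpl17 was 2.02-fold lower (1.85 to 2.21).

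The P-stalk recruits the elongation factors to the ribosome. Rpl12, which forms its base, had 946 control and 349 UNE-C1 reads and was 2.30-fold lower (2.03 to 2.61). The anchor Rplp0 went from 468 to 330 CPM, a log2 fold change of -0.51. The acidic stalk proteins Rplp1 (2238 and 1304 CPM) and Rplp2 (694 and 431 CPM) had log2 fold changes of -0.78 and -0.69. All 4 were lower in the UNE-C1 library, though by unequal amounts. Rpl5 and Rpl11, which bind 5S ribosomal RNA and can also restrain the p53 regulator Mdm2, had similar log2 fold changes of -0.82 and -0.72. Rpl5 stood at 414 and 234 CPM and Rpl11 at 84.0 and 50.4 CPM. The 8 proteins at the exit tunnel and its rim had a median of -0.63, from -1.15 for Rpl4 to -0.33 for Rpl19.

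At the other end of the large subunit, Rpl24, part of a bridge to the small subunit, had 165 control CPM and 177 UNE-C1 CPM. Its ratio of 1.07 (interval 1.01 to 1.13) placed it alone above 0 among the 46 standard large subunit genes, and it turned to -0.25 on the log2 scale with total counts. Rpl41, a very short basic peptide at the subunit interface, had 983 and 909 CPM, a log2 fold change of -0.11. Rpl13a, which is known to leave the ribosome in interferon-treated monocytes and repress inflammatory messengers, had 396 and 327 CPM and was 1.21-fold lower (1.17 to 1.26). Rpl19 had 255 and 204 CPM, a log2 fold change of -0.33. These 4 thus stood nearer to the median of all genes than to that of their own subunit.

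In the small subunit, 4 genes were at least 2-fold lower. Among them were Rps18, which touches the tRNAs from the head, at 266 and 131 CPM, and Rps2, at the messenger entry channel, at 184 and 90.9 CPM. Their log2 fold changes were -1.02 and -1.01. Close to them stood Rps6, the substrate of the S6 kinases, at 204 and 103 CPM (log2 fold change -0.98), and Rps27a, which is made fused to ubiquitin, at 464 and 236 CPM (-0.97). Rps3, which also binds the NF-kappaB subunit p65, went from 428 to 270 CPM, a log2 fold change of -0.66 at the middle of the family. The 14 proteins of the head and the 16 of the body and platform had almost equal medians, -0.70 and -0.68.

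Rps20 and Rps24 were among the abundant small subunit genes that lay above the interquartile range of the members. Rps20 (chromosome 4, 3831334 to 3835665) stood at 937 and 897 CPM and Rps24 at 716 and 624 CPM, log2 fold changes of -0.06 and -0.20. The most abundant small subunit gene, Rps9, went from 1399 to 986 CPM (-0.50), and Rps14, which binds ribosomal RNA in the platform, from 957 to 675 CPM (-0.50), both within that range.

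**Figure D3:**
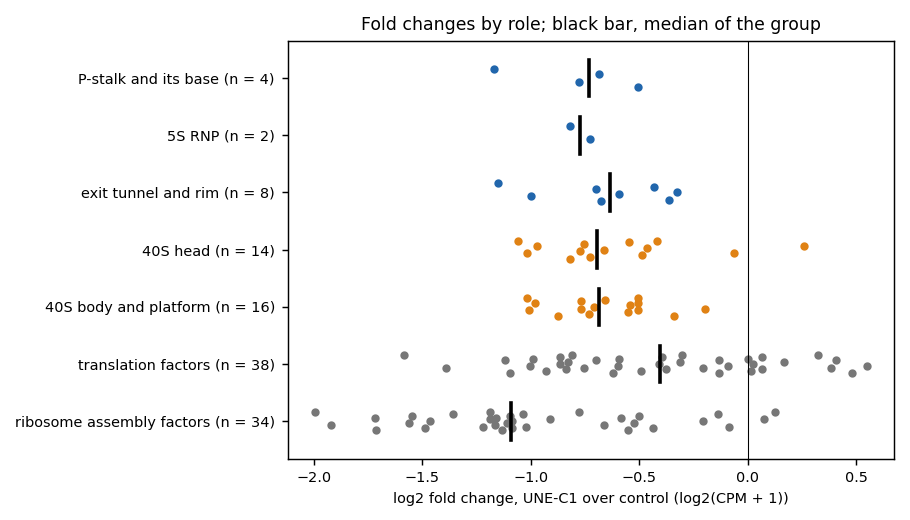
Log2 fold change (horizontal axis) of each gene in 5 role groups of the ribosome (blue, large subunit; orange, small subunit) and in lists of translation and ribosome assembly factors (grey), with a black bar at each median. The 5 ribosomal groups have medians between -0.77 and -0.63, and the assembly factors lie further left, at -1.09.

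Paralogs and copies were less uniform. Of the 7 past the floor 4 were below 0 (57.1%, near the background of 50.4%), and their median was -0.24. Their interquartile range was 0.81 wide, against 0.31 for all members past the floor. The 7 include the retrocopy Rps27rt and Rps4l, which GENCODE M21 annotates, like Rpl37rt, as a transcribed processed pseudogene. Rps27l, a relative of Rps27 and a known p53 target (chromosome 9, 66946086 to 66949516), had 2953 and 3200 reads, or 176 and 226 CPM, a ratio of 1.28 (interval 1.22 to 1.34). With total counts its log2 fold change was 0.01. The parent Rps27 stood at 66.4 and 52.3 CPM (-0.34), and the retrocopy Rps27rt at 123 and 104 CPM (-0.24). Counted without Rps27rt, Rps27l took 72.7% of the control reads of the Rps27 and Rps27l pair (interval 71.3 to 74.0). With UNE-C1 it took 81.2% (79.9 to 82.4). Rps27rt held 2063 and 1476 reads, more than Rps27 with 1111 and 742. Reads that match both can have gone to either, so these shares are uncertain beyond their intervals. Rpl3l, known from striated muscle, was the member at least 2-fold higher, on only 56 and 115 reads (ratio 2.42, interval 1.75 to 3.40). Next to Rpl3 it held 1.60% and then 11.1% of the reads of that pair. Rpl7l1, a protein of large subunit assembly, had 57.5 and 64.5 CPM, a log2 fold change of 0.16 that became -0.18 with total counts, while Rpl7 was at -0.44. Rpl22l1 was lower by more than its relative: it stood at -0.78 and Rpl22 at -0.48. Its share of that pair went from 8.62% (interval 8.20 to 9.06) to 7.07% (6.57 to 7.60). Rpl36al was at -0.57 and Rps4l, on 237 and 134 reads, at -0.54, beside -0.71 for Rps4x. Rpl39l (26 and 27 reads), the testis-linked relative of Rpl39 (254 and 198 CPM), and Rpl10l (0 and 1 reads), a relative of Rpl10 (319 and 222 CPM), did not reach 50 reads. The floor admitted Rpl3l as the member with fewest reads. Rps19bp1 had 30.0 and 32.5 CPM (ratio 1.08, interval 0.953 to 1.23), and its log2 fold change of 0.11 became -0.22 with total counts.

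Ribosomal proteins whose symbols the rule misses were also below 0. Gnb2l1, the older symbol of Rack1, a scaffold on the head, went from 577 to 282 CPM (log2 fold change -1.03). Rpsa, the laminin receptor precursor, went from 296 to 170 CPM (-0.79). Fau, a ubiquitin-like fusion with a small subunit protein, had 442 and 388 CPM (-0.19).

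Ribosomal protein genes have many near-identical copies in the mouse genome, and the sources used here do not say how reads that match several copies were counted. The 7 symbols with -ps held 43004 control and 24135 UNE-C1 reads. Rplp2-ps1 alone had 25223 and 13076 reads, more than Rplp2 with 11606 and 6111, and took 68.5% and then 68.2% of the pair. Rpl34-ps1 took 48.4% and then 48.5% of its pair with Rpl34. The retrocopy Rpl37rt, at 1064 and 784 CPM, took 70.7% and 71.8% of its pair with Rpl37. Copy and parent had log2 fold changes of -0.71 and -0.69, -0.34 and -0.35, and -0.44 and -0.51 in these pairs. Rpl14-ps1 differed more from its parent: it had 1436 and 460 reads, a log2 fold change of -1.38 beside -1.08 for Rpl14. Its share of that pair was 19.7% in the control (interval 18.8 to 20.6) and 16.5% with UNE-C1 (15.1 to 17.9). Levels of single members, and their shares of a pair, are uncertain where a copy exists. As a measure of sharing, the last 300 bases of each member's GENCODE M21 transcript were split into 50-base words, and words also found in a transcript of another gene were counted. Under this measure 35 of 87 members shared under 10% of their words. The 33 of them past the floor had a median log2 fold change of -0.56, with 28 below 0, and the 52 that shared more had -0.70, with 51 below 0. Among standard large subunit genes the medians were -0.72 for 19 with little sharing and -0.67 for 27 with more. Among small subunit genes they were -0.54 for 9 and -0.76 for 21. Rpl4, Rpl12, Rpl14, Rps20 and Rps27l shared none of their words, while Rpl3 shared 76.5%, Rpl10a 86.9%, and Rps27 and Rps27rt 100% each. Rpl37 and Rpl37rt also shared none and Rplp2 shared 6.37%, although these genes and Rpl14 belong to the pairs above. Only the ends of members were compared, and Rplp2-ps1 had no single GENCODE M21 entry under that symbol. Little sharing by this measure therefore does not show that a gene has no copy. The part of shared reads in the values of single genes was not tested.

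Longer members tended weakly to lie lower. Across the 76 standard genes the log2 fold change had a Pearson correlation of -0.35 and a Spearman correlation of -0.28 with log2 coding length, against -0.04 and -0.02 over 9803 genes tested. This is a description across genes that come from the same 2 libraries. The 26 shortest genes (138 to 405 nt) had a median of -0.59, the 25 of middle length (408 to 576 nt) -0.73 and the 25 longest (582 to 1257 nt) -0.72. Of the 10 standard genes at least 2-fold lower, 6 were in the longest set, with Rpl4 (1257 nt) and Rpl3 (1209 nt) at its end. The share at least 2-fold lower was 7.69%, 8% and 24%, shortest set first, where the background was 9.42%. Proteins shared by all domains of life had a median of -0.67 over 32 genes, and the other 44 standard genes -0.70.

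**Figure D4:**
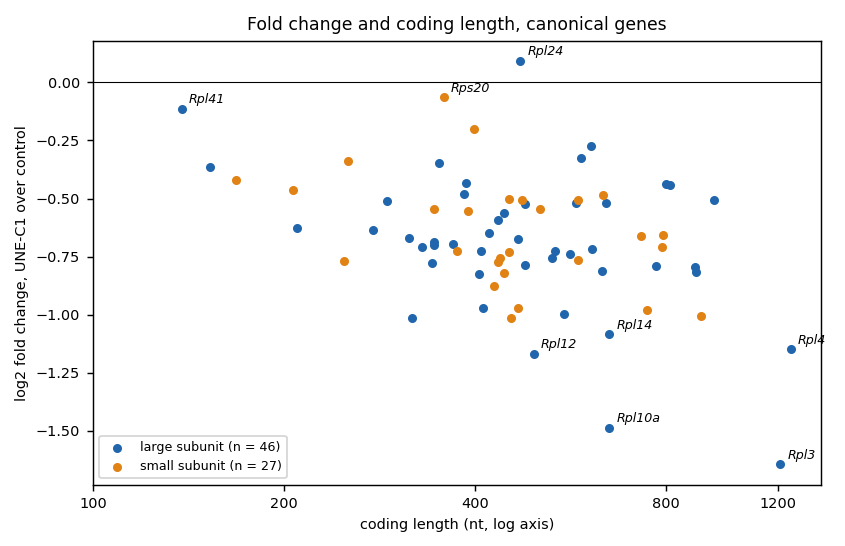
Log2 fold change (vertical axis) against coding length (nt, log axis) for the 46 large (blue) and 27 of the small (orange) subunit genes of the standard set. Rpl3 and Rpl4 are the longest and among the lowest, Rpl41 is the shortest, and Rpl24 is the point above 0 (it lies below 0 with total counts).

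Start site sequence was examined because the members were lower together and are known for a shared start motif. RefSeq promoter sequences of GRCm38.p6 were matched by symbol for 66 of 87 members, 56 of them standard genes. A C followed by at least 4 pyrimidines, beginning within 10 bases of an annotated start, was present in 60.7% of the 56 and in 34.4% of all 27025 genes in the table. Those 27025 genes were not limited to the 10469 tested in these libraries, and no comparison with genes of similar level was made. The annotated start can lie some bases from the one used in these cells. The hexamer CGGAAG, the core recognised by ETS factors, was sought on both strands in the 250 bases before and 50 bases from the start. It was present in 69.6% of the 56 and 18.8% of all genes. Its reverse complement, CTTCCG, itself holds a C followed by 4 pyrimidines, so both searches can meet in the same letters. AAGATGGC, a core of YY1 sites, was present on either strand in 8.93% of the 56 and 3.19% of all genes, and TATAAA in 10.7% and 15.7%. Members with the pyrimidine run had a median log2 fold change of -0.69 and those without it -0.66. Members with CGGAAG had -0.66 and those without it -0.71. The 5 members with AAGATGGC had a median of -0.48 and the other 51 had -0.70. The 6 members with TATAAA had -0.49 and the other 50 had -0.69.

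The start regions of the 4 lowest and the 4 highest standard genes in that table whose sequence could be shown are given from 40 bases before the annotated start to 20 bases from it. They are RefSeq sequences of GRCm38.p6, 5' to 3' on the gene's strand. Capitals mark the pyrimidine run that begins with C within 10 bases of the start.
Rpl10a: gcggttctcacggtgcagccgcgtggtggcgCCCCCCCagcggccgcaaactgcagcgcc
Rpl12: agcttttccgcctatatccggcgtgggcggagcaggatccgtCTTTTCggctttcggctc
Rpl4: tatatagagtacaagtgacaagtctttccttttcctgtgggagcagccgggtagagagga
Rpl14: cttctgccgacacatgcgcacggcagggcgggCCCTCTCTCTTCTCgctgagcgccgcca
Rpl24: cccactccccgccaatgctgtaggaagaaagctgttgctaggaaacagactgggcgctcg
Rpl41: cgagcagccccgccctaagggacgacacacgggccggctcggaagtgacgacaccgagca
Rps24: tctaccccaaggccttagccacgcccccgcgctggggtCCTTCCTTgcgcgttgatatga
Rpl13a: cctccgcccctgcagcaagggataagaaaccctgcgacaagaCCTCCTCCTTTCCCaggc
In order these lie at chr17:28328431-28328490 (plus strand), chr2:32961672-32961731 (plus strand), chr9:64173347-64173406 (plus strand), chr9:120571477-120571536 (plus strand), chr16:55966235-55966294 (plus strand), chr10:128549149-128549208 (minus strand), chr14:24490638-24490697 (plus strand) and chr7:45128726-45128785 (minus strand). Among the 4 lowest, Rpl4 has no run that begins with C inside this window. Its printed sequence does hold an unmarked pyrimidine stretch that begins more than 10 bases before the annotated start. Among the 4 highest Rps24 and Rpl13a have a marked run. Marked and unmarked starts, as this window defines them, thus occur at both ends of the family.

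Scaled by TMM, other genes of the translation apparatus were split. Of 38 translation factors, 27 were below 0 (71.1%, background 50.4%) and 5 at least 2-fold lower (13.2%, near the background of 9.42%), with a median of -0.40. Pabpc4, a poly(A)-binding protein, had 189 and 44 reads (3.64-fold lower, 2.61 to 5.18), and Eef1a1, which brings aminoacyl-tRNA to the ribosome, went from 1112 to 423 CPM (2.63-fold lower, 2.55 to 2.70). At the other end Eif4e, the cap-binding protein, went from 51.5 to 75.8 CPM (log2 fold change 0.55) and Eif1, which guards start codon choice, from 268 to 375 CPM (0.48). With total counts the translation factors still above 0 were Eif4e (0.21), Eif1 (0.14), Eif2s2 (0.06) and Eif6 (0.04). All others on that list were below 0, where the background was 70.3%. Ribosome assembly factors were lower than the ribosomal proteins themselves: 21 of 34 were at least 2-fold lower, above the background of 9.42%, and the median was -1.09. The markers of dividing cells were lower in the same library, and their part in this was not tested. Utp20 (266 and 46 reads) and Nop58 (891 and 189 reads), both of which act in ribosomal RNA processing, were lowest, at -1.99 and -1.92. Bysl and Rrp1 were the members above 0, at 0.13 and 0.07, and turned to -0.21 and -0.26 with total counts. The 77 genes of the mitochondrial ribosome had a median of -0.04, with 44 below 0 (57.1%, background 50.4%). Only 1 was at least 2-fold lower (1.30%, background 9.42%) and 2 at least 2-fold higher (background 9.31%).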

How the data were processed

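RNA from 1 control and 1 UNE-C1 culture of bone marrow-derived dendritic cells was sequenced with a QuantSeq 3' end kit from 500 ng of total RNA, per the labels' protocols. The authors deposited raw read counts per gene symbol, a unit read from the values. Bowtie2, edgeR and mm10 appear in the submitters' processing notes. The sources used here give no counting tool, annotation or handling of multiply mapped reads. Of 23282 entries, repeated symbols were summed to 23238. The totals were 14857198 and 15975821 reads.

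CPM used TMM effective library sizes (edgeR 4.0.16, R 4.3.3; factors 1.13 and 0.888, control first), a pseudocount of 1 and a floor of 50 reads in either library, which equals 2.99 and 3.52 CPM. Exact intervals used scipy 1.17.1 and were tested on simulated data. No p-value was computed. Positions and coding lengths come from GENCODE M21. Named genes were those at least 2-fold different, the 6 highest and 6 lowest and the 3 most abundant of each subunit, fixed stalk, 5S and paralog members, Rpl13a, Rps3 and Rps6, the 4 proteins outside the rule and the 2 highest and 2 lowest of each factor list; Rpl17, Rpl34, Rpl37, Lcn2 and the -ps genes were chosen after their values were seen. Some named genes are not reported here by name, and their values enter counts and medians only. The members and lists were chosen with earlier results of these data known. Alternatives were total counts, DESeq2 1.42.0 size factors, other pseudocounts and floors, other member lists, and reads of -ps copies or Rn45s treated otherwise.

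Over all genes tested 9.42% were at least 2-fold lower and 9.31% at least 2-fold higher. Of 7 mast cell, basophil and eosinophil markers past the floor (9 listed) 3 were lower and 0 higher. Of 11 for monocytes and macrophages (13 listed) 4 were lower and 3 higher. Of 13 dendritic cell markers (14 listed) 2 were lower and 1 higher. All 10 T and B cell markers were under the floor.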

Additional observations from a re-analysis of the deposited data

How the results depend on the processing

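With 1 library per group, no library could be left out, and no value has a replicate check. No paired analysis was possible because each group has a single library. Total counts in place of TMM gave 44 members at least 2-fold lower, 0 at least 2-fold higher, and medians of -1.01 for the large and -0.95 for the small subunit; against the median of all genes these were -0.69 and -0.62, where TMM gave -0.67 and -0.60. Under total counts 45 of 45 named genes moved down and 4 changed sign. The count of members 2-fold higher, 1 with Rpl3l, was 0 with a pseudocount of 5, with floors of 200 or 1000 reads and with the standard list with or without the 4 proteins outside the rule, which does not hold Rpl3l. The standard list gave shares of 3.39% and 1.77% of reads and 1.45 and 1.34 large per small subunit reads, control first; with the 4 proteins outside the rule added the control share was 3.63% and the ratios 1.37 and 1.28. Adding -ps reads to the parent gene gave 3.87% and 2.05%, and ratios of 1.69 and 1.55. Leaving out Rn45s gave 3.78% and 1.97%. The members with under 10% shared words, fewer genes by construction and a choice made after the data were seen, as was the floor of 1000 reads, gave 3 genes 2-fold lower, 28 below 0, a small subunit median of -0.49, shares of 1.49% and 0.831%, and ratios of 2.28 and 1.69. DESeq2 size factors, a pseudocount of 0.1 and no floor changed no count of members by over 1.5 times and turned neither subunit's median. Depth limits Rpl39l, Rpl10l and Rpl3l most.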
